A study of Homo sapiens with 12 samples.

Results

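A set of 10 noncoding host genes of small nucleolar RNAs (snoRNAs) was followed in HCT116 cells under metabolic or secretory stress: GAS5, SNHG1, SNHG5, SNHG6, SNHG8, SNHG12, SNHG15, ZFAS1, EPB41L4A-AS1, and DANCR. They were chosen by gene symbol, as transcripts known to be removed by nonsense-mediated decay, and make up 10 of the 60708 genes in the count tables. All 10 passed the filter on low counts in both comparisons, with between 202 counts (SNHG5 in OA replicate 2) and 50368 counts (GAS5 in the same library) per gene and library.

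HCT116 is a human colorectal carcinoma line, here of wild-type (WT) genotype, and no other genotype enters these comparisons. Cells were treated for 24 h with oligomycin A (OA), which blocks the ATP synthase of mitochondria, or with tunicamycin (TN), which blocks N-linked glycosylation, each at 5 µg/mL per the labels. Each stressor had 3 treated libraries and 3 DMSO libraries of its own (OActrl and TNctrl), labelled as biological replicates of 1 cell line, so p-values measure the spread between these cultures. The dose of OA in the methods of the study is higher than in the labels, and no value below depends on it.

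Host transcripts are spliced, and the snoRNAs are cut from the introns. The exons that remain carry only short open reading frames, so once a ribosome has translated them the transcript is recognised by nonsense-mediated decay, in which UPF1 and its partners mark RNAs that terminate translation early. Such transcripts accumulate when translation or UPF1 is blocked, and phosphorylation of the initiation factor eIF2, the shared step of the integrated stress response, lowers translation in stressed cells. Many hosts also begin with a C followed by an unbroken row of pyrimidines, the 5′ terminal oligopyrimidine (TOP) start that ties translation of ribosomal protein mRNAs to mTOR signalling.

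The start sites are shown first because members with alike starts differ below in the sign of their values. Windows of 30 bases, from 10 bases before the annotated start, were read from the RefSeq promoter table (GRCh38.p14) for 8 of the 10 members. SNHG15 has no entry there and is named only. SNHG6 was left out of the windows and of the counts made from them, and no sequence is shown for it. The same windows were read from hg38 at the start of the canonical transcript of each of these 8 genes in Gencode v44. Each is written 5′ to 3′ on the strand of the gene. Capitals mark a C followed only by C or T, at least 5 bases in all, that begins within 5 bases of the start.
ZFAS1 (both annotations, chr20:49278632-49278661, plus strand): gccattcgttCTTTCgcgtctgcggtgccc
GAS5 (Gencode, chr1:173867970-173867999, minus strand): accatactgtCTTTTCgaggtaggagtcga
GAS5 (RefSeq, chr1:173869026-173869055, minus strand): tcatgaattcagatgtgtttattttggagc
SNHG5 (RefSeq, chr6:85678714-85678743, minus strand): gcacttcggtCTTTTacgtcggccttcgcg
SNHG12 (RefSeq, chr1:28581854-28581883, minus strand): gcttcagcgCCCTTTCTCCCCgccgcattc
EPB41L4A-AS1 (both annotations, chr5:112160516-112160545, plus strand): tcatgaattctgtcgggtcccaaaatacgt

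Such a run lay within 5 bases of the start in 5 of the 8 RefSeq windows and in 5 of the 8 Gencode windows, against 21.1% of 35116 RefSeq promoters and 17.2% of 62700 Gencode canonical starts. At the start base itself it was found in 3 of 8 by either annotation, against 4.07% and 2.75%. Protein-coding snoRNA hosts, most of them ribosomal protein or translation factor genes, had it at the start base in 42.9% of 42 RefSeq promoters and 56.1% of 41 Gencode starts. The windows depend on which start is annotated. The 2 starts of GAS5 lie 1056 bases apart and only the Gencode one opens on the run, while the Gencode start of SNHG5 lies 15 bases before the RefSeq one, outside the run. These letters were matched on the strand of the gene only, and a match is a description of the sequence.

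Across the 12 libraries the totals ran from 9884124 to 24983573 counts, higher in each DMSO group than in its treated group. The 10 hosts together took 0.133% to 0.156% of the counts in the DMSO libraries, 0.233%, 0.582%, and 0.227% in the 3 OA libraries, and 0.243% to 0.262% in the TN libraries. OA replicate 2 stood apart from the other treated libraries in this share and in RN7SL1, the RNA of the signal recognition particle, which took 17.9% of its counts against 8.40% and 12.5% in the other OA libraries and 6.02% to 8.11% in OActrl. In TN, RN7SL1 took 9.22% to 13.3% against 6.23% to 7.50% in TNctrl. Fits without OA replicate 2 are given below, and the part of RN7SL1 in the results was not tested. Epithelial markers fit the labelled line, with KRT8, KRT18, and KRT19 each above 1000 CPM (counts scaled to a common library size) in every library. EPCAM was at 80.2 CPM or more, CDH1 at 32.6 to 179 CPM, and CDX2 at 5.92 to 15.7 CPM, while VIL1 had at most 3 counts. Of 6 epithelial markers tested, 1 rose and none fell in each comparison, in edgeR and in DESeq2. Over all genes in edgeR, 2.76% rose and 1.72% fell in OA, and 3.65% rose and 3.34% fell in TN. The median log2 fold changes of the 6 markers were 0.31 in OA and 0.20 in TN. They ranged from -0.76 to 1.81 in OA and from -0.42 to 1.69 in TN. The leukocyte markers PTPRC, CD3E, and LYZ had at most 1 count in any library. COL1A1, a fibroblast gene, had 15 to 124 counts, and COL1A2, DCN, and PECAM1 had at most 5. Every OA library lay above every DMSO library for COL1A1, at 1.72 ± 0.529 and 6.99 ± 4.75 CPM in OActrl and OA (SD, n = 3), a log2 fold change of 2.02 (edgeR, adjusted p = 0.0723) that passed in DESeq2, and its TN value was 0.22. The part of COL1A1 or of the epithelial markers in the results was not tested.

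The first comparison asked how the hosts stood after OA. By the edgeR quasi-likelihood test with Benjamini-Hochberg adjustment over 14681 genes, 1 of the 10 passed (GAS5, which rose), against 4.48% of all genes tested that passed and 2.76% that rose. None fell, against 1.72% of all genes, with 0 lower by DESeq2. At an unadjusted p under 0.05 in edgeR, 4 were higher and 1 (DANCR) lower, beside 3415 genes in either direction. The count of hosts that rose was 4 by DESeq2, which called 1927 genes in either direction, and 0 in edgeR without any 1 DMSO library or without OA replicate 3. With the replicate number as a block 4 rose and 1 (DANCR) fell, while the count over all genes went from 658 to 3914. The median log2 fold change of the 10 was 0.64, beside -0.02 over all genes tested, and 0.26 without OA replicate 2. In 5 hosts (GAS5, ZFAS1, EPB41L4A-AS1, SNHG8, and SNHG6) every OA library lay above every DMSO library, against 16.3% of all genes, and in 1 (DANCR) every OA library lay below, against 15.5%. In bulk RNA, a change in the share of cells that express a gene and a change in RNA per cell cannot be told apart.

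The second comparison asked the same of TN. Of the 10 hosts, 2 passed and rose (GAS5 and ZFAS1), against 6.99% of 14432 genes tested that passed and 3.65% that rose, and none fell, against 3.34%, with 1 (SNHG5) lower at an unadjusted p under 0.05 in edgeR and 0 lower by DESeq2. Higher were 5 at an unadjusted p under 0.05, beside 3504 genes in either direction, and 3 by DESeq2, beside 2162 genes. The median was 0.16, beside -0.03 over all genes. It was 0.45 without TNctrl replicate 1 and 0.07 without TN replicate 1, and in the latter fit 4 hosts rose and 1 fell. The same 5 hosts as in OA had every treated library above every DMSO library, against 15.9% of all genes, and SNHG5 had every TN library below, against 16.8%. Same-numbered libraries of TN and TNctrl deviated together, and with the replicate number as a block 5 hosts rose and 2 (SNHG5 and SNHG12) fell, while the count over all genes went from 1009 to 3915.

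**Figure D1:**
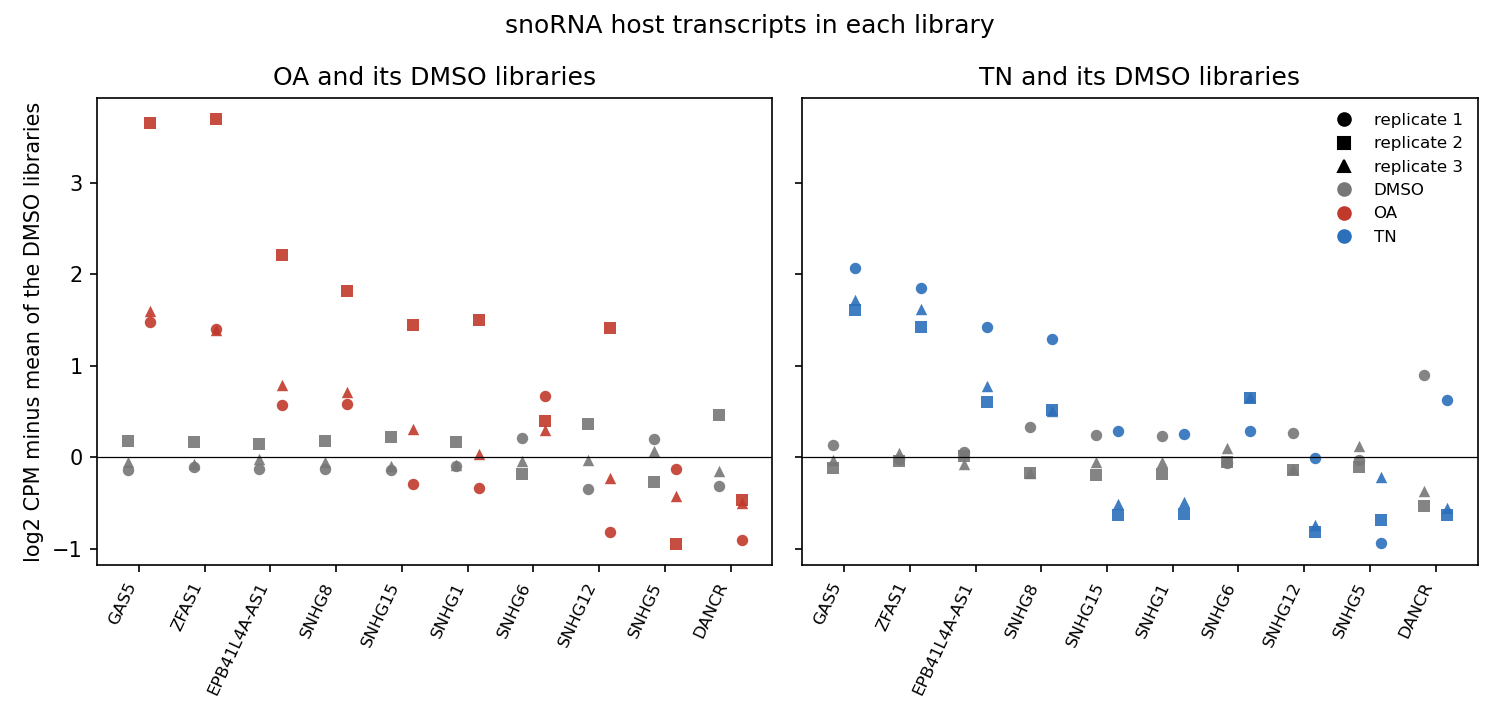
Level of each host in each library as log2 CPM minus the mean of its 3 DMSO libraries (vertical axis), for OA on the left and TN on the right, with the replicate number as the marker shape and DMSO in grey. GAS5 and ZFAS1 lie highest in both panels, and the square of OA replicate 2 lies far above the other OA libraries for 7 of the hosts.

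GAS5 (growth arrest-specific 5), a host of many box C/D snoRNAs on chromosome 1 (hg38, 173858559 to 173868882, minus strand), had the highest counts of the 10. It was at 364, 453, and 386 CPM in OActrl and at 1110, 5026, and 1212 CPM in OA. Means were 401 ± 46.0 and 2449 ± 2232 CPM (SD, n = 3). The log2 fold change of 2.61 ± 0.59 (SE) had an adjusted p of 0.0471 by edgeR. The groups did not overlap, and OA replicate 2 lay far above the other OA libraries. Without OA replicate 2 the log2 fold change was 1.53 with an adjusted p of 0.00898 in edgeR. The call was lost in edgeR when any DMSO library or OA replicate 3 was left out, with adjusted p up to 0.206 and log2 fold changes of 2.55 to 2.92.

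In TN, GAS5 was at 479, 402, and 427 CPM in TNctrl and at 1821, 1327, and 1432 CPM in the treated libraries. All 3 TN libraries lay above all 3 DMSO libraries and close to each other. The log2 fold change was 1.81 ± 0.21 (SE, n = 3) with an adjusted p of 0.00589 by edgeR, from 436 ± 39.0 to 1527 ± 260 CPM. Among the counts of the 10 hosts, GAS5 made up 30.2% to 33.0% in each of the 6 DMSO libraries, 52.2% to 63.1% in OA, and 55.2% to 57.3% in TN. The strand column of the deposited counts was not given in the sources used here, so reads of overlapping antisense genes cannot be told apart in this and the other hosts.

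ZFAS1, the host of the SNORD12 snoRNAs on chromosome 20 (49278178 to 49299600, plus strand), was at 67.8, 82.0, and 68.9 CPM in OActrl and at 192, 942, and 191 CPM in OA. The OA libraries all lay above the DMSO libraries, with replicate 2 again far above the rest. Its log2 fold change of 2.60 ± 0.63 (SE, n = 3), from 72.9 ± 7.87 to 441 ± 433 CPM, missed the threshold in edgeR (adjusted p = 0.0572) and passed by DESeq2 (adjusted p = 0.000399). In edgeR it passed without OA replicate 2, at 1.39 (edgeR, adjusted p = 0.0137). In TN it was at 83.6, 82.2, and 87.0 CPM in TNctrl and at 303, 226, and 260 CPM in the treated libraries, again with no overlap. Its log2 fold change was 1.64 ± 0.20 (SE, n = 3) with an adjusted p of 0.00662 by edgeR. In 1 fit over all 12 libraries ZFAS1 in TN did not pass, at 1.63 (edgeR, adjusted p = 0.0530). ZNFX1, which starts 248 bases from ZFAS1 on the other strand, was at -0.13 in OA and -0.68 in TN (edgeR, adjusted p = 0.813 and 0.277).

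EPB41L4A-AS1, the host of SNORA13 on chromosome 5 (112160526 to 112164818, plus strand), and SNHG8, the host of SNORA24 on chromosome 4 (118278703 to 118285316, plus strand), held a middle place. EPB41L4A-AS1 was at 34.8, 42.0, and 37.4 CPM in OActrl and at 56.3, 176, and 65.8 CPM in OA. It was at 42.1, 40.8, and 38.5 CPM in TNctrl and at 109, 61.9, and 69.5 CPM in TN. Every treated library lay above every DMSO library in both. The log2 fold changes were 1.38 ± 0.44 and 0.98 ± 0.26 (SE, n = 3), short of the threshold in edgeR (adjusted p = 0.108 and 0.0646), while both passed by DESeq2 (adjusted p = 0.0267 and 0.00712). Without OA replicate 2 the OA value was 0.67 (edgeR, adjusted p = 0.115). With the replicate block in TN it rose by 0.94 (edgeR, adjusted p = 0.00785). The gene lies within EPB41L4A on the other strand along 4293 bases, and EPB41L4A was at 0.17 in OA and 0.92 in TN with means of 3.09 to 5.84 CPM (edgeR, adjusted p = 0.833 and 0.0768).

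SNHG8 was at 105, 130, and 111 CPM in OActrl and at 172, 405, and 188 CPM in OA. In TNctrl it was at 135, 95.5, and 95.4 CPM, with TN libraries at 263, 154, and 153 CPM. Replicate 1 was the highest of both its TN groups, and neither pair of groups overlapped. The log2 fold changes of 1.15 ± 0.36 and 0.81 ± 0.29 (SE, n = 3) did not pass in edgeR (adjusted p = 0.105 and 0.141). In OA it passed by DESeq2 (adjusted p = 0.0336), and in TN the replicate block gave a rise of 0.78 (edgeR, adjusted p = 0.00654). Without OA replicate 2 the OA value of SNHG8 was 0.64 (edgeR, adjusted p = 0.112). PRSS12, which shares 5279 bases with SNHG8 on the other strand, was at -0.54 and -0.41 and did not pass in either.

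SNHG6, the host of SNORD87 on chromosome 8 (minus strand), had the smallest difference of the 5 hosts without overlap. It was at 110, 83.0, and 92.0 CPM in OActrl and at 150, 124, and 116 CPM in OA. It was at 115, 116, and 128 CPM in TNctrl and at 147, 188, and 189 CPM in TN. OA replicate 2 was not the highest OA library here, unlike in the 4 hosts above. The log2 fold changes were 0.45 ± 0.23 and 0.54 ± 0.20 (SE, n = 3; edgeR, adjusted p = 0.280 and 0.143). With the replicate block in TN, SNHG6 rose by 0.53 (edgeR, adjusted p = 0.0280).

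SNHG1, SNHG12, and SNHG15 had no common order between treated and DMSO libraries. SNHG1, which holds SNORD22 and SNORD25 to SNORD31 in its introns on chromosome 11 (62851978 to 62855953, minus strand), was at 267, 322, and 271 CPM in OActrl and at 227, 806, and 292 CPM in OA. In TNctrl it was at 342, 256, and 281 CPM, with 347, 190, and 208 CPM in TN. The groups overlapped in both comparisons, and the log2 fold changes were 0.63 ± 0.45 and -0.24 ± 0.28 (SE, n = 3; edgeR, adjusted p = 0.439 and 0.658). Without OA replicate 2, the OA value of SNHG1 was -0.15 (edgeR, adjusted p = 0.714). SNHG12, the host of SNORD99 on chromosome 1 (28578538 to 28583132, minus strand), was at 59.5, 97.5, and 74.2 CPM in OActrl and at 43.0, 201, and 64.7 CPM in OA. It was at 89.2, 67.1, and 67.8 CPM in TNctrl and at 73.8, 42.0, and 44.4 CPM in TN. The OA libraries of SNHG12 reached both below and above the range of the DMSO libraries. Its log2 fold changes were 0.42 ± 0.54 and -0.48 ± 0.28 (SE, n = 3; edgeR, adjusted p = 0.669 and 0.339), the first became -0.54 without OA replicate 2, and in TN the replicate block gave a fall, at -0.52 (edgeR, adjusted p = 0.0415).

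SNHG15, the host of SNORA9 on chromosome 7 (44983019 to 44986961, minus strand), was at 60.0, 77.4, and 61.9 CPM in OActrl and at 53.8, 180, and 81.8 CPM in OA. In TNctrl it was at 75.8, 55.9, and 61.7 CPM, with 77.9, 41.2, and 45.0 CPM in TN. With either stressor, treated libraries lay both below and above the range of the DMSO libraries. The log2 fold changes were 0.66 ± 0.42 and -0.24 ± 0.29 (SE, n = 3; edgeR, adjusted p = 0.382 and 0.678), and the OA value was 0.01 without OA replicate 2.

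SNHG5 and DANCR had lower means in both treatments. SNHG5, the host of SNORD50 on chromosome 6 (85650491 to 85678932, minus strand), was at 44.7, 32.3, and 40.8 CPM in OActrl and at 35.8, 20.2, and 29.0 CPM in OA. It was at 45.8, 43.6, and 51.2 CPM in TNctrl and at 24.3, 29.1, and 40.2 CPM in TN. OA replicate 2, the highest library for GAS5 and ZFAS1, was the lowest for SNHG5. The log2 fold changes were -0.47 ± 0.29 and -0.59 ± 0.24 (SE, n = 3; edgeR, adjusted p = 0.368 and 0.194). Without OA replicate 2 the OA value was -0.27, and in TN the replicate block gave a fall, at -0.61 (edgeR, adjusted p = 0.0302).

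DANCR, the host of SNORA26 on chromosome 4 (52712325 to 52723623, plus strand), is a noncoding RNA named for its role against differentiation. It was at 92.8, 159, and 104 CPM in OActrl and at 61.8, 83.4, and 81.6 CPM in OA, with no overlap. In TNctrl it was at 160, 59.0, and 66.0 CPM, with 132, 55.1, and 58.4 CPM in TN, so that replicate 1 stood far above the other libraries in both groups. The log2 fold changes were -0.65 ± 0.28 and -0.22 ± 0.49 (SE, n = 3; edgeR, adjusted p = 0.212 and 0.832). In unblocked fits the sign in TN depended on single libraries, at 0.37 without TNctrl replicate 1 and 0.00 without TN replicate 2. Same-numbered TN and TNctrl libraries differed by -0.28, -0.10, and -0.18 on the log2 scale. With the replicate block the TN value was -0.19 and did not pass (edgeR, adjusted p = 0.369). The OA value was -0.34 without OActrl replicate 2. ERVMER34-1, which shares 1006 bases with DANCR on the other strand, fell in both, by 1.54 in OA and by 1.62 in TN (edgeR, adjusted p = 0.0350 and 0.0123).

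**Figure D2:**
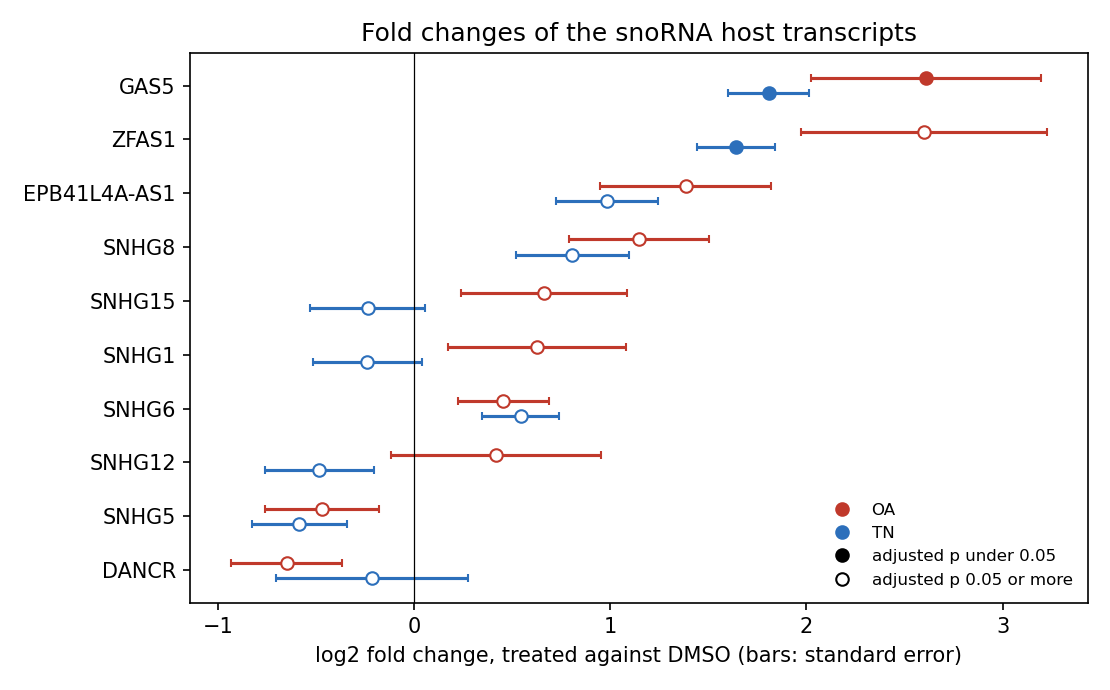
Fitted log2 fold change of each host (horizontal axis) with its standard error as the bar, for OA in red and TN in blue. Filled points have an adjusted p under 0.05 in edgeR, which only GAS5 in OA and GAS5 and ZFAS1 in TN reach.

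The order of the hosts was set side by side for the stressors, which have separate DMSO libraries. GAS5 and ZFAS1 had the 2 highest log2 fold changes in each, followed by EPB41L4A-AS1 and SNHG8, and SNHG5 and DANCR had the 2 lowest in OA. The difference between the OA change and the TN change was 0.69 ± 0.61 for GAS5 and 0.83 ± 0.65 for ZFAS1 (SE), and it was -0.16 ± 0.30 for SNHG6 and 0.05 ± 0.41 for SNHG5. SNHG1, SNHG12, and SNHG15 had differences of 0.77 ± 0.53, 0.80 ± 0.63, and 0.81 ± 0.51. Without OA replicate 2 these became -0.29 for GAS5, -0.27 for ZFAS1, 0.09 for SNHG1, -0.05 for SNHG12, and 0.25 for SNHG15. The lowest unadjusted p of any host for this difference was 0.135 in edgeR, so none passed. Of 15429 genes tested for this difference, 0 passed in edgeR, 348 had an unadjusted p under 0.05, and 2 passed in DESeq2.

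ZFAS1 and SNHG5, whose RefSeq starts both open on a C and a short row of T, were also compared within each library. ZFAS1 had 1.52, 2.54, and 1.69 counts per count of SNHG5 in OActrl and 5.36, 46.7, and 6.57 in OA. In TNctrl the ratio was 1.82, 1.89, and 1.70, and in TN 12.5, 7.76, and 6.46. Every treated library had a higher ratio than every DMSO library. The pair was chosen for its opposite values, so this is a description. An exact two-sided permutation test of the log2 ratio gave p = 0.1 for each stressor. That is the lowest value 3 against 3 libraries allow, so the test decides nothing. The ratio does not depend on how libraries are scaled to each other.

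SNHG1 starts 51 bases from SLC3A2 on the other strand, head to head. SLC3A2 encodes the heavy chain of amino acid transporters and is induced by ATF4 in the integrated stress response. It rose from 337 ± 71.4 to 1469 ± 827 CPM with OA and from 282 ± 46.4 to 1288 ± 375 CPM with TN (SD, n = 3), at log2 fold changes of 2.12 ± 0.41 and 2.19 ± 0.27 (SE; edgeR, adjusted p = 0.0351 and 0.00662). The count of SLC3A2 per count of SNHG1 was 1.02, 1.29, and 1.20 in OActrl against 3.61, 2.98, and 4.07 in OA, and 0.977, 1.02, and 0.888 in TNctrl against 4.96, 5.50, and 5.26 in TN. Treated and DMSO libraries did not overlap in this ratio for either stressor, which is given as a description too. The same permutation test again gave its lowest value, p = 0.1, for each stressor.

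**Figure D3:**
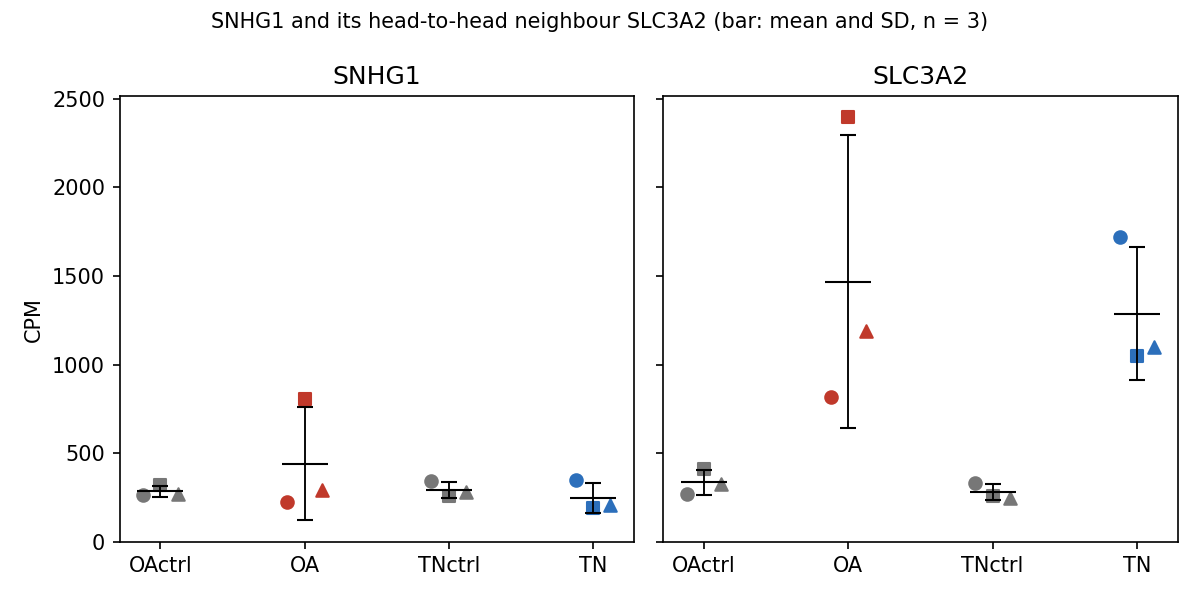
CPM (vertical axis, from 0) of SNHG1 on the left and of SLC3A2 on the right in the 4 groups, with 1 point per library and the mean and SD (n = 3) as black bars. SLC3A2 lies at 819 CPM or more in each treated library and at 414 CPM or less in each DMSO library, while the SNHG1 groups overlap.

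The snoRNAs in the introns of the 10 hosts were mostly without counts. Of 32 snoRNAs on the list, 22 had an entry, in 28 gene entries by symbol, and 23 of these had 0 counts in all 12 libraries. SNORD12C, from an intron of ZFAS1, was at 5.97 ± 1.19 CPM in OActrl and 5.48 ± 3.06 CPM in OA, and at 5.17 ± 1.07 CPM in TNctrl and 2.39 ± 0.814 CPM in TN (SD, n = 3). Its log2 fold changes were -0.13 ± 0.49 and -1.12 ± 0.36 (SE), beside 2.60 and 1.64 for its host. SNORD99, from an intron of SNHG12, was at -0.54 ± 0.52 and -1.14 ± 0.41. SNORA13 of EPB41L4A-AS1 was at 0.48 ± 0.57 and -0.05 ± 0.40. None of the 4 tested in OA or the 3 tested in TN passed in edgeR, against 4.48% and 6.99% of all genes. At an unadjusted p under 0.05 there were 0 in OA and 2 in TN, both lower. Over all genes, 3415 of 14681 in OA and 3504 of 14432 in TN reached that p in either direction. DESeq2 called 0 in OA and 1, lower, in TN, beside 1927 and 2162 genes. The reason for the many counts of 0 was not tested.

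Other noncoding snoRNA hosts also had values on both sides of 0, from -0.80 to 2.25 in OA and from -1.29 to 1.57 in TN. Of 15 tested in OA, 1 rose and none fell, against 2.76% and 1.72% of all genes. The median log2 fold change was 0.24, with every OA library above every DMSO library in 3, near the 16.3% of all genes. In 3 every OA library lay below, against 15.5% of all genes. At an unadjusted p under 0.05, 2 were higher and 3 lower, and by DESeq2 2 were higher and 1 lower. SNHG29 rose with OA from 1035 ± 52.1 to 2942 ± 1367 CPM (log2 fold change 1.51 ± 0.34, SE, n = 3; edgeR, adjusted p = 0.0467). In TN, 2 of 15 rose and 1 fell, with a median of 0.24. Every TN library lay above every DMSO library in 2, near the 15.9% of all genes, and below in 2, against 16.8%. Over all genes, 3.65% rose and 3.34% fell. SNHG32 rose by 1.57 ± 0.22 and SNHG29 by 1.26 ± 0.26, while SNHG17 fell by 1.29 ± 0.31 (SE, n = 3; edgeR, adjusted p = 0.00930, 0.0326, and 0.0484). SNHG32 in OA was at 2.25 ± 0.55 and missed the threshold (adjusted p = 0.0595, edgeR). Its OA libraries were at 57.6, 252, and 73.3 CPM, with replicate 2 far above the rest, beside a mean of 26.7 CPM in OActrl. For all named genes outside the 10, above and below, every OA call was lost in edgeR when any 1 OActrl library was left out (adjusted p = 0.0678 to 0.213), and every TN call but those of SLC3A2 and DDIT3 was lost without TNctrl replicate 2 or without TNctrl replicate 3 (adjusted p = 0.0562 to 0.199).

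Protein-coding snoRNA hosts keep a full reading frame in their exons. All 41 were tested, with medians of 0.61 in OA and 0.59 in TN and 29 of 41 positive in each. Every treated library lay above every DMSO library in 19 of them in OA and in 21 in TN, against 16.3% and 15.9% of all genes. In 7 in each comparison every treated library lay below, near the 15.5% in OA and 16.8% in TN of all genes. In OA none rose and 1 fell, HSPA8, a constitutive heat shock protein 70 family chaperone, by 1.44 ± 0.27 (SE, n = 3; edgeR, adjusted p = 0.0317). The count that rose in OA was 4 without OA replicate 1 and 1 without OA replicate 2. At an unadjusted p under 0.05, 20 were higher and 4 lower in OA, beside 3415 of 14681 genes in either direction, and 8 were higher and 2 lower by DESeq2, beside 1927 genes. In TN 2 rose and 4 fell, with 7 higher and 4 lower by DESeq2 and 19 higher and 8 lower at an unadjusted p under 0.05, beside 2162 and 3504 of 14432 genes in either direction. Over all genes in edgeR, 3.65% rose and 3.34% fell. Those that passed in edgeR included TPT1, a TOP mRNA, which rose by 0.93 ± 0.19, and NCL, the nucleolar protein nucleolin, which fell by 1.29 ± 0.18 (SE, n = 3; edgeR, adjusted p = 0.0297 and 0.00940). HSPA8 fell by 1.27 ± 0.21 and NOP56, a core protein of box C/D snoRNPs, fell by 1.14 ± 0.25 in TN (edgeR, adjusted p = 0.0155 and 0.0374). Of 10 proteins of snoRNP structure and assembly, none rose and 3 fell in TN (NOP56, DKC1, and SHQ1), with medians of -0.49 in OA and -0.59 in TN. In OA none of these 10 passed in edgeR, with 0 higher and 3 lower at an unadjusted p under 0.05 and 0 by DESeq2.

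**Figure D4:**
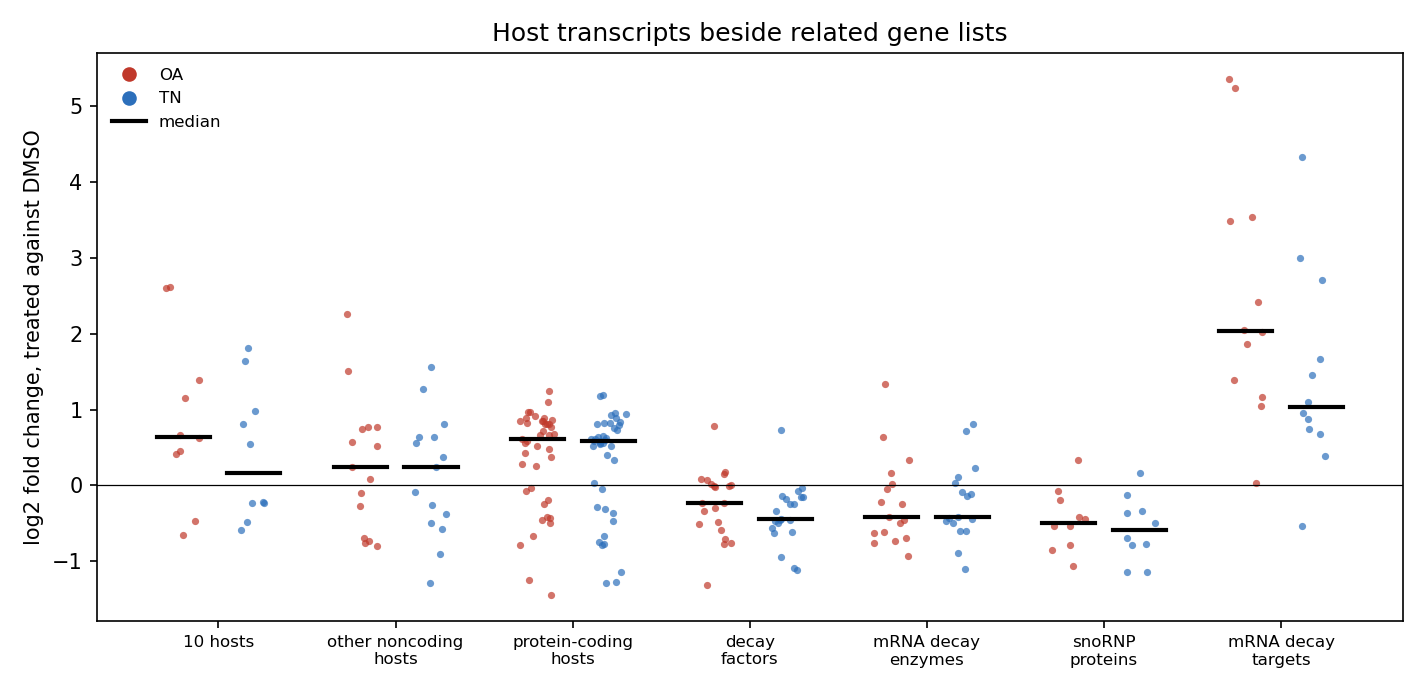
Log2 fold change (vertical axis) of each tested gene in 7 lists, for OA in red and TN in blue, with black lines at the medians. The 10 hosts spread from -0.65 to 2.61 in OA, and the mRNA decay targets have the highest medians, 2.03 and 1.03.

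Genes of the decay machinery itself were compared too. Of 21 nonsense-mediated decay factors tested in OA, none passed in edgeR, with 1 higher and 2 lower at an unadjusted p under 0.05 and 0 by DESeq2, and a median of -0.23. In TN, 1 fell and none rose in edgeR, with a median of -0.44 and 1 of 21 positive. By DESeq2, 1 was higher and 2 were lower in TN, and 1 was higher and 4 were lower at an unadjusted p under 0.05, beside 3504 of 14432 genes in either direction at that p. EIF4A3, the helicase of the exon junction complex, fell by 1.08 ± 0.21 with TN, from 326 ± 47.0 to 154 ± 20.7 CPM (n = 3; edgeR, adjusted p = 0.0251), and was at -0.70 ± 0.24 with OA (edgeR, adjusted p = 0.126). UPF3B, which bridges UPF1 and the exon junction complex, was at -1.31 ± 0.46 with OA (edgeR, adjusted p = 0.135) at a level of 3.77 CPM in OActrl. Of 17 mRNA decay enzymes, 0 passed in OA by edgeR, with 1 higher and 3 lower at an unadjusted p under 0.05 and 1 higher and 2 lower by DESeq2. In TN 2 of the 17 fell, the exosome subunits EXOSC3 and EXOSC2, by 0.89 ± 0.20 and 1.11 ± 0.26 (edgeR, adjusted p = 0.0385 and 0.0481). By DESeq2 2 were higher and 2 lower in TN, and 2 were higher and 3 lower at an unadjusted p under 0.05. Over all genes in edgeR, 3.65% rose and 3.34% fell in TN. The median was -0.42 in both comparisons.

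mRNAs that are known both as targets of this decay and as stress response genes had higher medians than the hosts. Of 12, 9 rose and none fell in OA, with a median of 2.03, and 5 rose and none fell in TN, with a median of 1.03, against 2.76% and 3.65% of all genes that rose. None of the 12 was lower at an unadjusted p under 0.05 or by DESeq2 in either comparison. Without 1 library, the count that rose in edgeR was 0 (without OActrl replicate 1, 2, or 3) to 9 in OA and 2 (without TNctrl replicate 2 or 3) to 7 in TN. DDIT3, which encodes the transcription factor CHOP, rose by 5.23 ± 0.51 with OA and by 4.33 ± 0.34 with TN (SE, n = 3; edgeR, adjusted p = 0.0100 and 0.00240). ATF4 rose by 1.38 ± 0.25 and 1.46 ± 0.20 (edgeR, adjusted p = 0.0280 and 0.00906). Stress pathways also raise transcription of these genes, and transcription and decay cannot be told apart from RNA levels. Of 18 eIF2 and translation initiation genes, 0 passed in OA by edgeR, with 2 higher and 3 lower at an unadjusted p under 0.05 and 1 higher and 2 lower by DESeq2. In TN, EIF2AK3, which encodes the eIF2 kinase PERK, rose by 1.24 ± 0.23, and EIF2B1 fell by 1.08 ± 0.24 (edgeR, adjusted p = 0.0243 and 0.0394).

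The hosts were also followed library by library. The median of the 10 over their DMSO means, on the log2 scale, was 0.22, 1.47, and 0.31 in the OA libraries and 0.46, -0.05, and 0.15 in the TN libraries, beside -0.13 to 0.19 in the DMSO libraries. OA replicate 2 and TN replicate 1, the highest for this median in their groups, were also the highest in RN7SL1 share, a link that was not tested. Over the 12 libraries, the Pearson correlation of each host with the mean centred profile of all 10, of which it is part, was 0.97 for SNHG8, 0.95 for EPB41L4A-AS1, 0.90 for GAS5 and for ZFAS1, 0.76 for SNHG1, 0.75 for SNHG15, and 0.60 for SNHG12. It was 0.09 for SNHG6 and for DANCR and -0.85 for SNHG5. Outside the 10, the genes whose levels followed this mean profile most closely included SRPRB, NQO2, and MSN at 0.98 and OSER1 at 0.97, none of which passed in either comparison. OA replicate 2, which stood apart above, is included in all these correlations, and they were not repeated without it. They are given as a description.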

How the data were processed

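RNA-seq counts of 12 libraries of HCT116 cells were used. The labels name a stranded total RNA kit. The authors aligned the reads to hg38 and made raw counts per gene from a Gencode annotation, which they deposited without normalization. The authors also deposited log2 fold changes and p-values from DESeq2, which were not used. Gene positions were taken from Gencode v44 on hg38 by gene identifier without version.

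Genes that passed filterByExpr were normalized by TMM and tested two-sided in R 4.3.3 by quasi-likelihood (edgeR 4.0.16), with p-values adjusted by Benjamini-Hochberg across the genes tested, for each stressor alone and for the difference over 12 libraries. Each SE was obtained from the log2 fold change and the square root of F. CPM are scaled by TMM. The plot by library and the correlations use log2 CPM, for which the prior count was 2. Ratios within a library used the raw counts, and their pairs were chosen after values were seen. The test of each stressor alone was tried on simulated data.

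The members and lists were chosen with earlier results of these data known. Named were all 10 hosts, up to 4 genes per list and comparison that passed or the 2 with the lowest p, genes next to or overlapping a host on the other strand, and the 5 genes most like the mean profile, of which the text gives a selection. A few of these genes are not reported here. Further genes named beside small counts were picked with their values known. The alternatives tried were a replicate block, fits without each library, DESeq2 1.42.0, edgeR with the size factors of DESeq2, scaling to ACTB or to total counts, no filter, a minimum of 10 counts per library, and 1 fit over the 12 libraries. Offsets for GC content were added after seeing the data.

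Replicate numbers are shared between groups. For TN, same-numbered libraries deviated together, with correlations across genes of 0.64, 0.41, and 0.43. A replicate block is therefore given beside the TN results, while the main fits carry no block. Libraries numbered 2 and 3 correlated as strongly across numbers (0.38 and 0.44), so the check sets replicate 1 apart from both but does not separate 2 from 3. No replicate pair had counts within sampling noise (chi-square per gene of at least 5.92).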

Additional observations from a re-analysis of the deposited data

How the results depend on the processing

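Genes passing in OA numbered 658 and went to 1927 with DESeq2, 1425 with ACTB scaling, 1572 with no filter, 3914 with the replicate block, 2360 with GC offsets, 3771 with both, and 1681 in 1 fit of 12 libraries, with 3 (without OActrl replicate 2 or 3) to 1179 (without OA replicate 1) when 1 library was left out. Hosts that rose in OA went from 1 to 4, 4, 4, 4, 3, 5, and 3 in the same order, and 0 to 4 without 1 library. With the block, GAS5, ZFAS1, SNHG8, and EPB41L4A-AS1 rose, by 2.23, 2.14, 1.04, and 1.19 (edgeR, adjusted p = 0.00224, 0.00358, 0.00927, and 0.0114). With it 1 fell, DANCR, at -0.62 (edgeR, adjusted p = 0.0389). The 3 same-numbered OA pairs correlated at 0.62, 0.54, and 0.09, and replicates 1 and 2 across numbers at -0.52 and -0.61. Replicate 3 did not pair, so the OA block is given host by host only here, unlike the TN block. The median of the hosts in OA went from 0.64 to 1.11 with ACTB scaling, 0.96 with GC offsets, and 0.31 with total counts, and was 0.26 (without OA replicate 2) to 0.94 (without OA replicate 1).

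Genes passing in TN went from 1009 to 2162 with DESeq2, 1648 with no filter, 3915 with the block, 3134 with GC offsets, and 5365 with both, and were 151 (without TNctrl replicate 3) to 2361 (without TN replicate 1) when 1 library was left out. Hosts that rose went from 2 to 4 with ACTB scaling, 5 with the block, 4 with GC offsets, 5 with both, and 1 in 1 fit of 12 libraries, and 2 to 4 without 1 library. Hosts that fell went from 0 to 2 with the block, 1 with GC offsets, 2 with both, and 0 to 1 without 1 library. The median of the hosts in TN went from 0.16 to 0.52 with ACTB scaling, 0.40 with GC offsets, and 0.00 with total counts, and was 0.07 to 0.45 without 1 library. The difference between stressors went from 0 genes to 2 with DESeq2, 25 with no filter, 1 with GC offsets, and 6 with GC offsets and the block, and 0 to 4 without 1 library.

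Of 530 alternative fits of single hosts, none reversed a call, 5 lost one, and 47 gained one. GAS5 in TN passed in all of them, and ZFAS1 in TN in all but 1 fit of 12 libraries. ACTB scaling moved the median of all genes to 0.42 in OA and 0.30 in TN, and total counts moved it to -0.23 and -0.18. Over all genes in OA, 405 rose and 253 fell, which became 1341 and 84 with ACTB scaling and 352 and 396 with total counts. In TN, 527 rose and 482 fell, which became 1198 and 220 with ACTB scaling and 529 and 875 with total counts. With ACTB scaling, SNHG1, SNHG15, and DANCR in TN changed sign without passing, as did SNHG1 with GC offsets. Of 799 alternative fits of the 25 other named genes, none reversed a call, 105 lost one, and 74 gained one. The causes were not tested. Each host had at least 202 counts in every library.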
